A study of Mus musculus with 38 samples.

Results

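Leukocyte adhesion in bone marrow rests on a small set of cell surface proteins, and their genes were followed here through every cell type of the myeloma bone-lining niche that was sequenced. Members were the rows of the deposited RPKM table that carry the symbols Vcam1, Icam1, Icam2, Sele, Selp, Itga4, Itgb1, Itgal and Cd44, which are 9 of the 10 symbols chosen and 9 of 13260 genes in the table. Itgb7 was not analysed here. The rule used gene symbols and no threshold on a value. RPKM here scales the reads of a gene by its length and by a library size that carries a scaling factor. Levels of different genes can thus be set beside each other per unit of length.

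Leukocytes leave the blood in steps. Selectins on endothelial cells, E-selectin (Sele) and P-selectin (Selp), bind sugars on leukocyte proteins such as PSGL-1 (Selplg) and slow the cells. Integrins on the leukocyte then hold it, and each integrin is a pair of an alpha and a beta chain. VLA-4, made of alpha 4 (Itga4) and beta 1 (Itgb1), binds VCAM-1 (Vcam1) and fibronectin (Fn1), whereas LFA-1, made of alpha L (Itgal) and beta 2 (Itgb2), binds ICAM-1 (Icam1) and ICAM-2 (Icam2). CD44 binds hyaluronan in the matrix. Plasma cells and myeloma cells use these same proteins to stay in the marrow, and VCAM-1 on stromal cells is a known partner of VLA-4 on myeloma cells.

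The mice were C57Bl/KaLwRijHsd, 8 to 10 weeks old when inoculated intravenously with PBS (healthy) or with 1000000 5TGM1-GFP cells (myeloma-bearing), and the bones were taken on day 23. No further treatment was given. Niche cells were released from crushed bones by collagenase and sorted in aliquots of 100 cells per library. Endothelial cells (EC; CD45-Ter119-CD31+) and stromal progenitors (SP; CD45-Ter119-CD31-, Sca1+ and ALCAM-) had 5 libraries from healthy and 5 from myeloma-bearing mice, and osteoprogenitors (OP; CD45-Ter119-CD31-, ALCAM+ and Sca1-) had 4 and 4. GFP+ myeloma cells (MM), with 5 libraries from the bone lining and 5 from the central marrow, descend from 1 transplanted cell line, and healthy mice hold none. Letters name replicates, and whether libraries with the same letter came from the same animal is not given. Since 100 cells were taken per library, a higher level may come from more positive cells or from more RNA in each, and these cannot be told apart.

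Libraries held 9735031 to 34883291 reads on genes, recovered from the steps of the RPKM values. Gate genes checked the sort only. Pecam1 (CD31) was at 133 RPKM or more in every EC library and at 2.19 or less in SP and OP, Ptprc (CD45) was at 0.0975 or less in every EC library, and Alcam was at 1.97 or more in every OP library. Although SP were sorted as CD45-, Ptprc was at 4.89 RPKM in SP myeloma-bearing E. Marker sums of the 6 endothelial genes were 1039 to 2179 RPKM in EC, at most 26.1 RPKM in SP and OP and 13.7 to 34.8 RPKM in MM. The 8 osteoprogenitor markers summed to 8044 to 64231 RPKM in OP and to at most 1162 RPKM in SP, the 6 stromal progenitor markers to 1105 to 3112 RPKM in SP and to at most 545 RPKM in OP, and the 7 myeloma and plasma cell markers to 4042 to 10863 RPKM in MM and to at most 452 RPKM elsewhere. The stromal progenitor list includes Ly6a, and in EC it summed to 2724 to 8974 RPKM, against 1105 to 3112 RPKM in SP. Libraries SP healthy L and SP myeloma-bearing E stood apart, with sums of 6660 and 7570 RPKM over the 13 leukocyte markers, which were at most 228 RPKM in the other SP and OP libraries. These sums came mostly from S100a8 (4728 and 5174 RPKM) and S100a9 (1674 and 1617 RPKM). In L, Ptprc, Coro1a, Tyrobp, Cd53, Rac2 and Cd79b were at 0.0209 RPKM or less. In E, Laptm5, Coro1a, Lcp1 and Cd79b were at 0.225 RPKM or less. Results between cell types are therefore also given without this pair. In EC the leukocyte markers summed to 299 to 1987 RPKM, mostly from Fcer1g (295 to 1978 RPKM). Libraries of a group served as replicates, and p-values measure the spread between these samples.

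**Figure D1:**
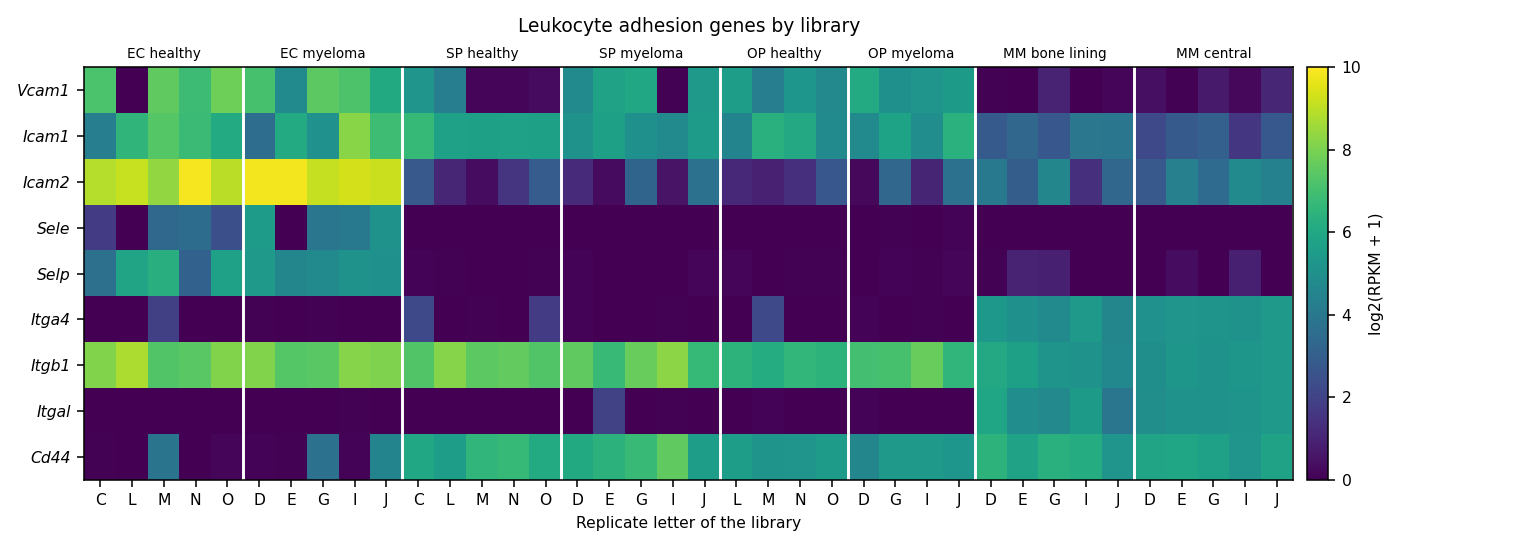
Level of each adhesion gene in each of the 38 libraries, as log2(RPKM + 1) by colour, with libraries in columns ordered by group and named by replicate letter. Icam2 and Itgb1 are bright in all EC columns, Selp is weaker there, and Sele is weaker still and dark in 2 EC libraries. Itga4 and Itgal are at middle levels in the 10 MM columns, and Vcam1 is dark in 1 EC library and 4 SP libraries.

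The genes fell into 3 patterns across cell types. Icam2, Selp and Sele were endothelial, Itga4 and Itgal were high in myeloma cells only, and Vcam1, Icam1, Itgb1 and Cd44 were shared by several types at different levels. Differences were tested with limma over 12683 genes and called at an adjusted p below 0.1 with an absolute log2 difference above 1. In EC against SP, 4 of 9 members were called higher (9.97% of all genes tested) and 1 lower (15.5%). In EC against OP, 4 were higher (10.4%) and 1 lower (17.5%). Between SP and OP 0 members were called, where 3.58% of genes were higher and 4.9% lower in SP, and 3 of 9 members had an unadjusted p below 0.05. The voom-limma alternative called 1 member there.

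All 9 members differed between MM and EC, 3 higher in MM (26.3% of all genes) and 6 lower (16.9%). MM against SP gave 3 higher (22.5%) and 3 lower (19.3%), and MM against OP also 3 higher (19.9%) and 3 lower (20.1%). The median log2 difference of the members was -2.97 in MM against EC, beside 0.24 over all genes, and in EC against SP it was 0.55 beside -0.12. Without the 2 SP libraries rich in leukocyte markers, these counts were the same in every pair of cell types but SP against OP, where 1 member, Vcam1, was called lower in SP.

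**Figure D2:**
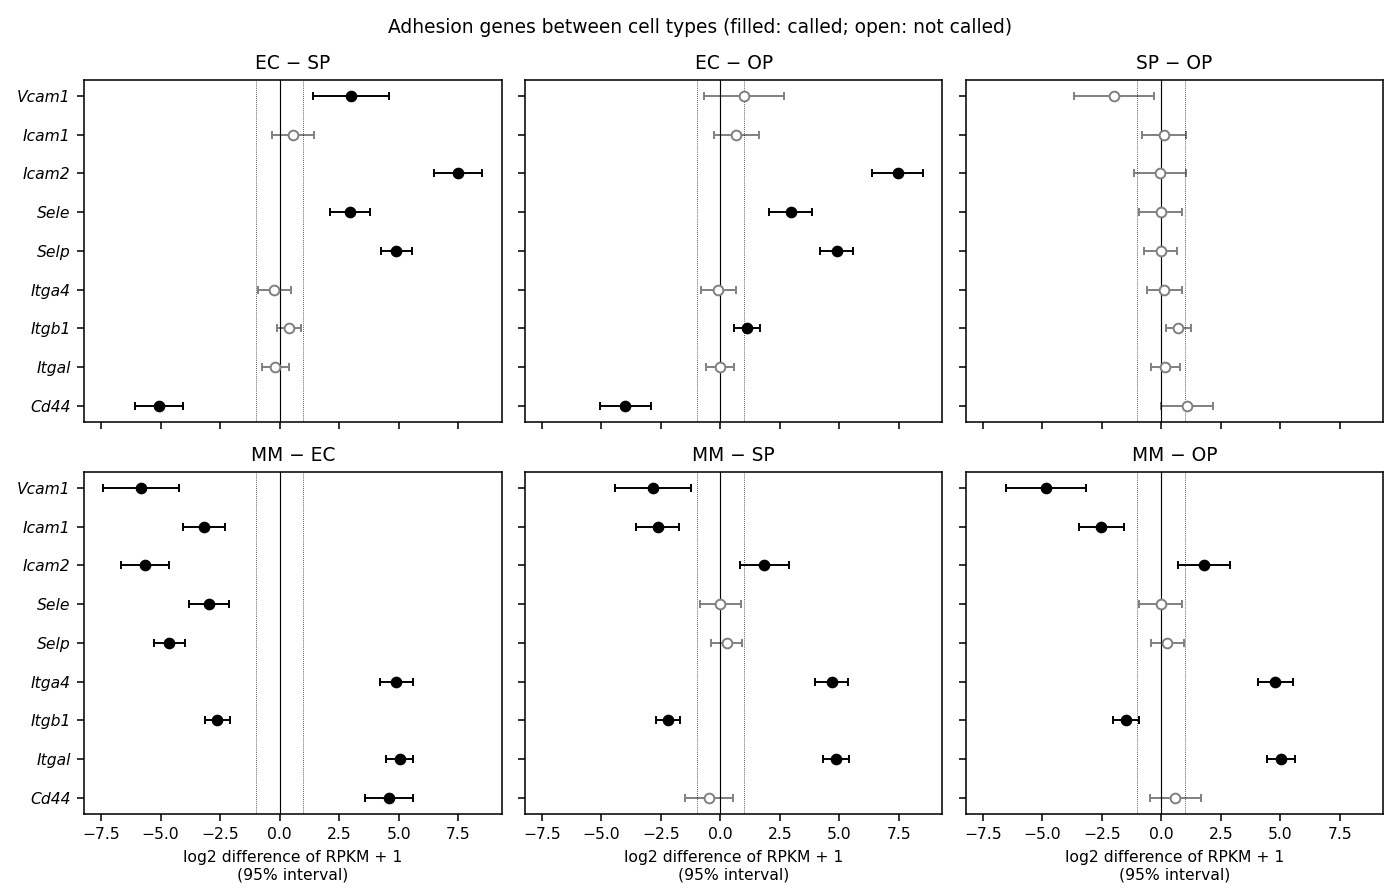
Log2 difference of RPKM + 1 between cell types for each adhesion gene, with its 95% interval from limma. Filled points were called, open points were not, and dotted lines mark a log2 difference of 1 in either direction. Icam2, Selp and Sele lie to the right in both EC panels, and Itga4 and Itgal to the right in all 3 MM panels.

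Sele and Selp are neighbours on chromosome 1 of GRCm38 (164039614 to 164058487 and 164115264 to 164150026), with 56776 bases between them. E-selectin is made by activated endothelium, and in marrow vessels also at rest, while P-selectin is kept in granules of endothelial cells and platelets. The promoters of this pair and of Icam1 are shown because these genes are switched on by inflammatory signals in endothelium, and 6 of the 9 members have an entry in the RefSeq table used (build GRCm38.p6). Each sequence is the 250 bases before the listed start, on the plus strand, and capitals mark a GAS motif, the element bound by STAT factors. The listed start of Sele lies inside the annotated span of the gene.
Sele, chr1:164047984-164048233: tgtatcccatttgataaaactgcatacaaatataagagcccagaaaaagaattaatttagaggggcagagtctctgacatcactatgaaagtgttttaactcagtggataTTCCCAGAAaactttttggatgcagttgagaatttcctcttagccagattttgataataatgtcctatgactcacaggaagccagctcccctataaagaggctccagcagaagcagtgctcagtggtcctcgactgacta
Selp, chr1:164115014-164115263: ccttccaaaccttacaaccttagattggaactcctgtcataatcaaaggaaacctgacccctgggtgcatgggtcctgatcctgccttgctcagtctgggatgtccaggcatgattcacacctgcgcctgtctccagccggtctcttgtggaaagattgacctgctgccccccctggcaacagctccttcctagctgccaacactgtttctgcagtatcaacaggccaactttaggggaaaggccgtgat
Icam1, chr9:21015690-21015939: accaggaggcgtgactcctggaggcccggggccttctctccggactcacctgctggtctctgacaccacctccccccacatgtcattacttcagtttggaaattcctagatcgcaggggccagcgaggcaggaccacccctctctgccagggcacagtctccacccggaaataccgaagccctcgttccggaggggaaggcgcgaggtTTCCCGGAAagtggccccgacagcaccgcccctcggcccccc

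Both strands were searched for GAS (TTCNNNGAA), ISRE (GAAA, any 2 bases, GAAA), an ETS core (GGAAGT) and the kappaB element (GGG, a purine, any 2 bases, 2 pyrimidines, CC). GAS was in 2 of the 6 promoters, Icam1 at positions -42 to -34 and Sele at -140 to -132 from the start, and in 7.02% of all 32851 promoters. As a palindrome it matched on both strands. The other motifs, held by 2.98% (ISRE), 19.7% (ETS) and 7.25% (kappaB) of all promoters, had no match in these 6 windows. Looser forms, such as kappaB-like sites with fewer than 3 leading G bases, were not searched. A match describes letters only.

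Selp was detected in every EC library. Its levels were 11.8, 56.1, 77.7, 7.65 and 52.2 RPKM in healthy libraries C, L, M, N and O, and 41.4, 22.8, 26.5, 33.2 and 31.7 RPKM in myeloma-bearing libraries D, E, G, I and J. All other libraries stayed below 1 RPKM, with at most 0.119 in SP and OP and 0.969 in MM, so EC did not overlap any other type. EC averaged 36.1 ± 21.4 RPKM (SD, n = 10), with a log2 difference of 4.90 ± 0.32 (SE) from SP (adjusted p = 2.49e-15) and 4.88 ± 0.34 from OP (adjusted p = 1.72e-14). Selp is among the endothelial markers that the study lists, so this difference mainly describes the sorted cells. Since platelets also carry P-selectin, the summed level of the 3 platelet markers in the table (Pf4, Gp1bb and Itga2b) was set beside it. That sum was 0.31 to 239 RPKM in EC. Libraries with similar Selp differed in it, as healthy L (56.1 RPKM of Selp) had 0.31 RPKM and healthy O (52.2 RPKM of Selp) had 239 RPKM, and the part of platelet RNA in Selp was not tested.

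Sele was the other endothelial selectin, at lower levels and in fewer libraries. Healthy EC libraries C, L, M, N and O gave 2.36, 0, 9.02, 10.6 and 4.46 RPKM, and myeloma-bearing libraries D, E, G, I and J gave 44.7, 0, 14.4, 15.3 and 34.1 RPKM. Library L of healthy and library E of myeloma-bearing mice thus had 0 reads of Sele, and they were also the EC libraries with the most Ly6a (8769 and 6722 RPKM, against at most 4390 RPKM in the others). The part of this in the Sele result was not tested. Outside EC, 15 of the 18 SP and OP libraries and all 10 MM libraries had 0 reads, and no library had more than 2. Sele was higher in EC than in SP by 2.97 ± 0.42 (SE) on the log2 scale (adjusted p = 6.36e-07) and than in OP by 2.95 ± 0.45 (adjusted p = 1.99e-06). With MM set at 3 reads per library, 0.0381 to 0.0771 RPKM, the EC mean of 13.5 ± 14.9 RPKM (SD, n = 10) was at least 263-fold higher than that of MM, for counting error only.

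Icam2 (chromosome 11, 106377656 to 106388139), whose product ICAM-2 stands on resting endothelium, was the most abundant member in EC. Healthy EC libraries ran from 330 to 932 RPKM and myeloma-bearing ones from 557 to 917. Every other library was at 26.9 RPKM or lower. Its log2 difference from SP was 7.49 ± 0.50 (SE, adjusted p = 4.29e-15) and from OP 7.45 ± 0.53 (adjusted p = 3.14e-14). Below EC, MM averaged 13.8 ± 8.37 RPKM (SD, n = 10), SP 3.85 ± 4.28 (n = 10) and OP 4.01 ± 4.6 (n = 8). MM was higher than SP by 1.85 ± 0.50 (adjusted p = 0.00327) and than OP by 1.80 ± 0.53 (adjusted p = 0.00727), although the ranges overlapped in both cases. Of the 6 endothelial markers, 2 were also higher in MM than in SP and 1 lower, and the same counts held against OP. Pecam1 (2.77 to 23.2 RPKM in MM) and Egfl7 (0.577 to 24.3 RPKM) were the higher ones, whereas Cdh5, Tek and Kdr were at 0.351 RPKM or less in every MM library. Their part in the Icam2 result was not tested. SP and OP differed by -0.05 (95% interval -1.13 to 1.03).

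Icam1 (chromosome 9, 21015940 to 21028814) encodes the main inducible ligand of LFA-1 and was present in all 38 libraries. In EC it ranged from 18.6 to 164 RPKM in healthy and from 11 to 297 RPKM in myeloma-bearing mice. SP libraries lay between 25.7 and 104 RPKM, OP between 21.8 and 82.7 RPKM, and MM between 1.98 and 14.7 RPKM. The 3 niche types did not differ at the thresholds (EC against SP 0.55, 95% interval -0.34 to 1.44; EC against OP 0.66, -0.28 to 1.61). MM was lower than each, by -3.19 ± 0.44 (SE) from EC (adjusted p = 1.74e-07), -2.64 ± 0.44 from SP (adjusted p = 5.68e-06) and -2.53 ± 0.47 from OP (adjusted p = 3.14e-05). MM did not overlap SP or OP, and overlapped EC through myeloma-bearing library D at 11 RPKM.

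**Figure D3:**
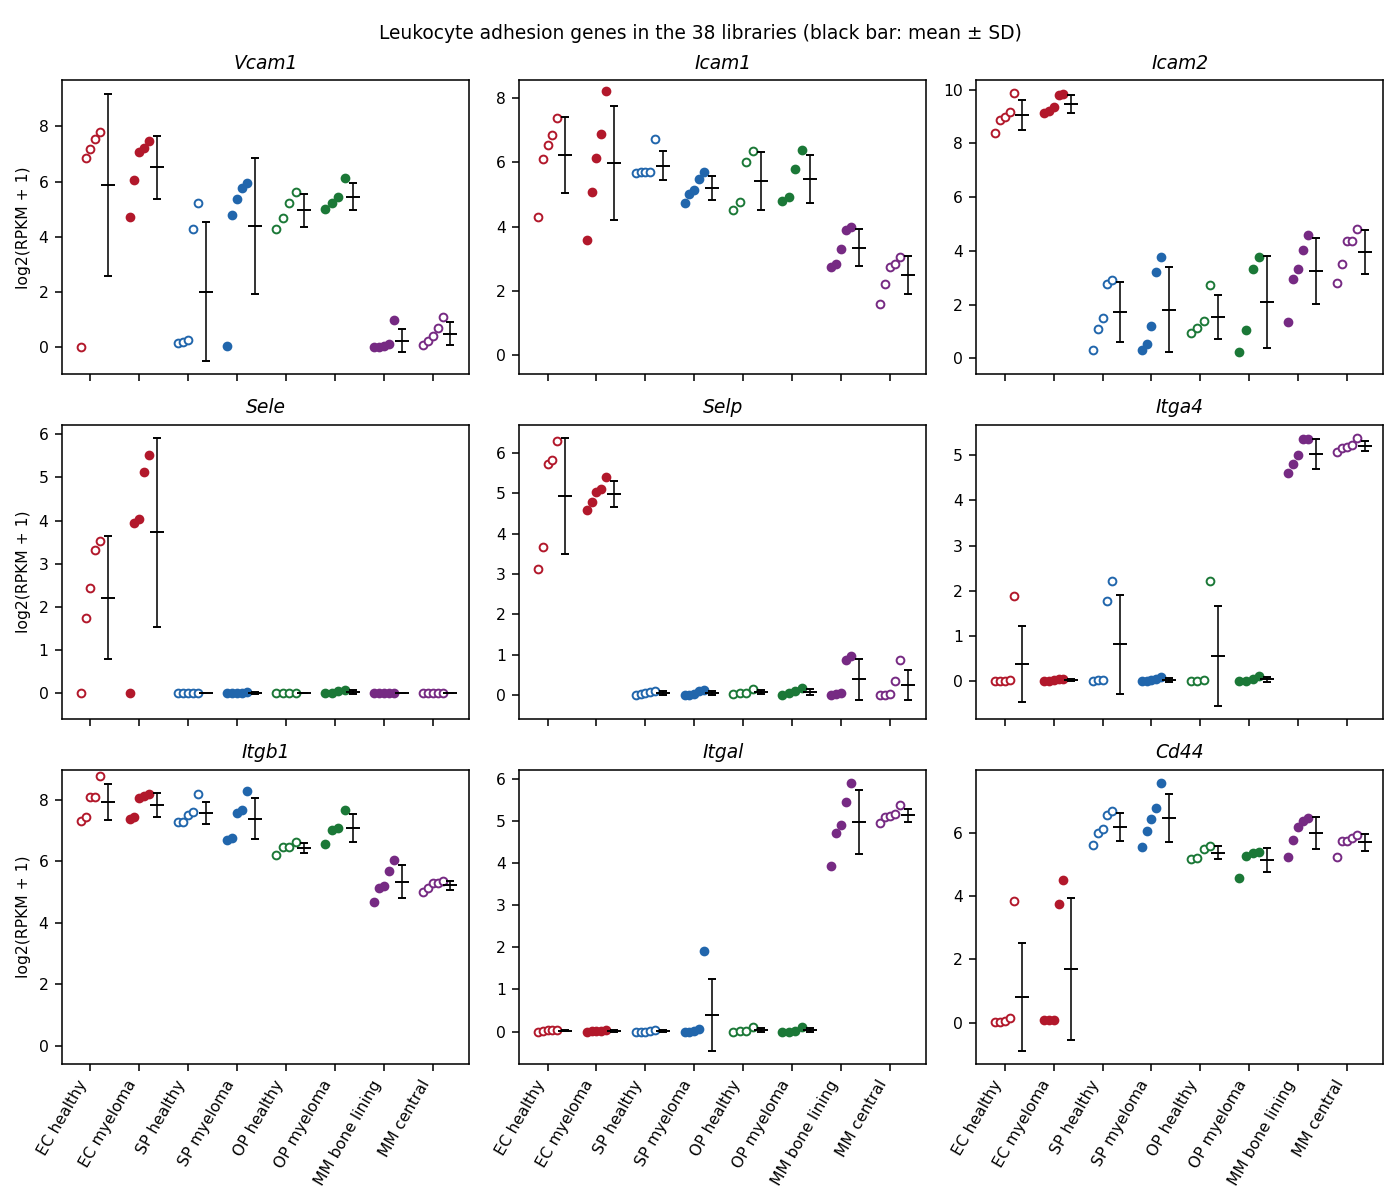
Level of each adhesion gene, as log2(RPKM + 1), in the libraries of each of 8 groups. Points are libraries sorted by level, open for healthy mice and for central marrow MM and filled otherwise, and black bars give the mean and SD. Vcam1 splits SP into libraries near 0 and libraries above 4, and Cd44 is near 0 in 7 of 10 EC libraries and above 3 in the other 3.

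Vcam1 (chromosome 3, 116110020 to 116129688), the ligand of VLA-4, spread widely between libraries of the same niche cell type. In EC, healthy libraries C, L, M, N and O had 144, 0, 185, 116 and 221 RPKM, and myeloma-bearing libraries D, E, G, I and J had 134, 25.5, 178, 148 and 65.5 RPKM. Library L with 0 reads was again the exception. All 8 OP libraries were positive, at 48.1, 18.4, 36.7 and 24.9 RPKM in healthy (L, M, N, O) and 68.7, 31.4, 36.2 and 42.6 RPKM in myeloma-bearing mice (D, G, I, J). SP fell into separate levels. Healthy SP libraries C and L had 36.4 and 18.4 RPKM, whereas M, N and O had 0.109, 0.135 and 0.211 RPKM (8, 10 and 16 reads). Among myeloma-bearing SP libraries D, E, G and J had 26.5, 53.5, 61.5 and 40.6 RPKM, and I had 0.0354 RPKM (3 reads).

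MM held almost no Vcam1, at most 1.12 RPKM (81 reads). EC averaged 122 ± 71.2 RPKM (SD, n = 10) and SP 23.7 ± 23.6 (n = 10), a log2 difference of 2.99 ± 0.78 (SE, adjusted p = 0.00387). Against OP, at 38.4 ± 15.5 RPKM (n = 8), the difference was 0.99 ± 0.83 (adjusted p = 0.447), and without the libraries of letter L it was 1.84 (adjusted p = 0.0501), which passed both thresholds. SP lay below OP by -2.0 (95% interval -3.68 to -0.32, adjusted p = 0.176). This passed without letter C (-2.40, adjusted p = 0.0754), without letter L (-2.17, adjusted p = 0.0542), and without the 2 SP libraries rich in leukocyte markers (-2.45, adjusted p = 0.0958). MM was lower than EC by -5.83 ± 0.78 (adjusted p = 1.08e-07), than OP by -4.84 ± 0.83 (adjusted p = 1.06e-05) and than SP by -2.84 ± 0.78 (adjusted p = 0.0036). The last call was lost with healthy niche libraries only (-1.65, adjusted p = 0.199) and with voom-limma (-4.49, adjusted p = 0.132). The study lists Vcam1 among its endothelial markers as well.

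Itga4 (chromosome 2, 79255426 to 79333114), the alpha chain of VLA-4, was high in myeloma cells only among the types sequenced. The niche types were sorted as CD45-, so no other leukocytes were there to compare. Bone lining libraries D, E, G, I and J had 39.6, 31, 26.7, 40 and 23.3 RPKM, and central marrow libraries 32.6, 36.2, 35.3, 34.5 and 40.2 RPKM. Among 28 niche libraries 4 exceeded 1 RPKM, all from healthy mice, namely EC M (2.69 RPKM), SP C (3.64), SP O (2.44) and OP M (3.64), and the other niche libraries were at 0.0803 RPKM or less. MM was higher by 4.90 ± 0.34 (SE) than EC (adjusted p = 6.88e-15), 4.68 ± 0.34 than SP (adjusted p = 2.19e-14) and 4.80 ± 0.36 than OP (adjusted p = 6.62e-14), with no overlap.

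Itgb1 (chromosome 8, 128685654 to 128733579), which pairs with many alpha chains and so serves matrix adhesion in most tissues, ran the other way. It averaged 249 ± 85.6 RPKM (SD, n = 10) in EC, 189 ± 68 (n = 10) in SP, 113 ± 42.3 (n = 8) in OP and 39.1 ± 11.2 (n = 10) in MM. MM lay apart from each niche type, by -2.61 ± 0.25 (SE) from EC (adjusted p = 4.37e-11), -2.20 ± 0.25 from SP (adjusted p = 2.51e-09) and -1.48 ± 0.27 from OP (adjusted p = 2.17e-05). Within the niche EC exceeded OP by 1.13 ± 0.27 (adjusted p = 0.00121), with overlapping ranges. EC against SP gave 0.41 (95% interval -0.10 to 0.92, adjusted p = 0.276) and SP against OP 0.72 (0.18 to 1.26, adjusted p = 0.108).

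In MM the levels of the VLA-4 chains were close to each other. The ratio of Itga4 to Itgb1 was 0.899 to 1.06 (median 0.995) in the 5 central marrow libraries and 0.609 to 1.18 (median 0.754) in the 5 bone lining libraries. For LFA-1, the alpha chain exceeded the beta chain in every MM library. The ratio of Itgal to Itgb2 was 1.64 to 3.61 (median 1.92) in the central marrow and 1.26 to 4.15 (median 1.7) in the bone lining. These are ratios of RNA levels per length, with ranges that overlap between the niches.

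**Figure D4:**
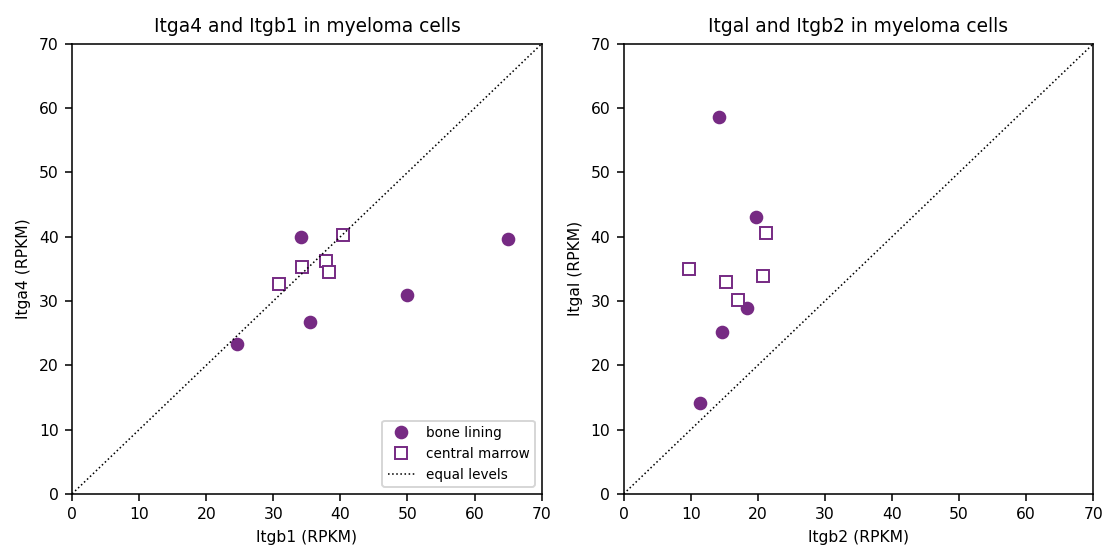
Level of the alpha chain (RPKM, vertical axis) against the beta chain (RPKM, horizontal axis) of VLA-4, left, and LFA-1, right, in the 10 MM libraries, filled circles for the bone lining and open squares for the central marrow. VLA-4 points of the central marrow lie close to the dotted line of equal levels, and all 10 LFA-1 points lie above it.

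Itgal (chromosome 7, 127296139 to 127335137) was at 58.7, 28.9, 25.1, 43 and 14.2 RPKM in bone lining MM (D, E, G, I, J) and at 30.1, 33, 33.9, 34.9 and 40.6 RPKM in central marrow MM. Alpha L is restricted to leukocytes, and 27 of 28 niche libraries had 0.0758 RPKM or less. The exception was SP myeloma-bearing E with 2.79 RPKM (378 reads), 1 of the libraries rich in leukocyte markers. Of the 13 leukocyte markers that library had 4.89 RPKM of Ptprc, 287 of Tyrobp, 21.9 of Cd53, 5174 of S100a8 and 1617 of S100a9. Cd52 (136 RPKM), Fcer1g (106), Lyz2 (211) and Rac2 (8.63) were present there as well. Lcp1 (0.196 RPKM), Cd79b (0.225), Coro1a (0.0483) and Laptm5 (0) were low or absent, and so was Itgb2 (0.108 RPKM, 8 reads). The part of leukocyte transcripts in the Itgal of this library was not tested. MM exceeded EC by 5.04 ± 0.28 (SE, adjusted p = 6.21e-18), SP by 4.86 ± 0.28 (adjusted p = 1.74e-17) and OP by 5.03 ± 0.30 (adjusted p = 4.91e-17). Itgb2, its partner, averaged 16.2 ± 3.89 RPKM (SD, n = 10) in MM, and in niche cells it exceeded 1 RPKM in EC healthy C (15.6 RPKM), SP healthy L (8.15) and EC myeloma-bearing J (1.17).

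Cd44 (chromosome 2, 102811141 to 102901669) was found in every library of SP, OP and MM. SP ran from 47.9 to 102 RPKM in healthy and from 46.1 to 188 RPKM in myeloma-bearing mice, OP from 35.3 to 46.8 and from 22.8 to 40.8, and MM from 36.4 to 87.2 RPKM. EC differed. Only healthy library M (13.5 RPKM) and myeloma-bearing libraries G (12.3) and J (21.8) were above 1 RPKM, and the other 7 EC libraries were at 0.109 RPKM or less. EC lay below SP by -5.07 ± 0.50 (SE, adjusted p = 1.66e-10), below OP by -4.00 ± 0.53 (adjusted p = 1.51e-07), and MM exceeded EC by 4.59 ± 0.50 (adjusted p = 1.09e-09), with no overlap in any of these. SP and OP differed by 1.08 (95% interval 0.00 to 2.16, adjusted p = 0.286), a difference called only with voom-limma (1.15, adjusted p = 0.0709). MM against SP gave -0.49 (-1.50 to 0.53) and MM against OP 0.59 (-0.48 to 1.67).

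Selectin ligand genes differed in both directions in MM. Of 11 selectin ligand and glycosylation genes tested, 2 were higher and 3 lower in MM than in EC (26.3% and 16.9% of all genes), and 2 higher and 5 lower than in SP (22.5% and 19.3%) and also than in OP (19.9% and 20.1%). Selplg, which encodes PSGL-1, averaged 60.1 ± 10.3 RPKM (SD, n = 10) in MM and at most 0.0949 RPKM in another type, a log2 difference of 5.88 ± 0.25 (SE) from EC (adjusted p = 1.23e-21). St3gal6, a sialyltransferase of selectin ligands, was lower in MM than in EC by -5.75 ± 0.65 (adjusted p = 2.8e-09), and averaged 113 ± 97.3 RPKM (SD, n = 10) in EC and 0.568 ± 1.18 (n = 10) in MM. The list's median in MM against EC was -0.55, beside 0.24 for all genes.

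Of 12 further alpha chains, 0 were higher in MM than in any niche type, where 19.9% to 26.3% of all genes were, and 6, 6 and 5 were lower than in EC, SP and OP (16.9%, 19.3% and 20.1% of all genes). Itga1, a collagen receptor chain, was higher in EC than in SP by 2.65 ± 0.57 (SE, adjusted p = 0.000482), and Itga10, another of these, was lower in EC by -3.75 ± 0.46 (adjusted p = 3.21e-08). Of 4 further beta chains, 2 were higher and 1 lower in MM than in EC (26.3% and 16.9% of all genes). Itgb2 was higher by 3.53 ± 0.42 (adjusted p = 6.54e-09) and Itgb5, which pairs with alpha V, by 1.07 ± 0.45 (adjusted p = 0.053), while Itgb4, which pairs with alpha 6, was lower by -1.96 ± 0.29 (adjusted p = 9.51e-07). Against SP, 1 beta chain was higher and 2 lower in MM (22.5% and 19.3% of all genes), and against OP 1 and 1 (19.9% and 20.1%). Itgb5 was there lower in MM, by -2.83 ± 0.45 from SP (adjusted p = 2.45e-06) and -1.30 ± 0.48 from OP (adjusted p = 0.029). Itgb5 was also lower in EC than in SP, by -3.90 ± 0.45 (adjusted p = 6.25e-09). Among 21 genes of integrin activation and adaptors, 4 were higher and 10 lower in MM than in EC, beside 26.3% and 16.9% of all genes. The counts were 5 and 4 against SP (22.5% and 19.3%), and 5 and 5 against OP (19.9% and 20.1%). Fermt2 (kindlin-2) averaged 128 ± 79.4 RPKM (SD, n = 10) in EC and 0.0908 ± 0.0697 (n = 10) in MM, a difference of -6.72 ± 0.35 (SE, adjusted p = 1.14e-18). Fermt3, the kindlin of blood cells, was at 5.89 ± 3.13 RPKM (n = 10) in MM.

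Ligands in the matrix were mostly higher in stromal cells. Of 10 matrix and hyaluronan genes tested, 1 was higher and 8 were lower in EC than in SP (9.97% and 15.5% of all genes), and 0 were higher and 8 lower in MM than in SP (22.5% and 19.3%). Fn1, the fibronectin that VLA-4 also binds, averaged 2512 ± 638 RPKM (SD, n = 10) in SP, 1184 ± 418 (n = 8) in OP, 30.2 ± 19.8 (n = 10) in EC and 1.07 ± 0.787 (n = 10) in MM. Spp1 (osteopontin), a ligand of integrins and of CD44, averaged 19753 ± 7420 RPKM in SP and 15.7 ± 11.6 in MM. Between SP and OP, 3 of the 10 were higher in SP (3.58% of all genes) and 1 lower (4.9%). Has1, which makes hyaluronan, was higher in SP by 3.41 ± 0.55 (SE, adjusted p = 3.33e-05), and Vcan, which binds hyaluronan, by 4.32 ± 0.37 (adjusted p = 3.53e-11), while Tnc (tenascin C) was lower by -2.01 ± 0.70 (adjusted p = 0.0849). Of 14 endothelial junction genes, 10 were higher in EC than in SP (9.97% of all genes; median of the list 6.56, beside -0.12 for all genes), led by Emcn (9.85 ± 0.30, adjusted p = 2.25e-25), which encodes endomucin. Pecam1 is also a gate gene of that list.

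No adhesion gene passed the thresholds between healthy and myeloma-bearing mice in any niche cell type. In EC 0 of 6 members tested were called (0% of 7880 genes), in SP 0 of 5 (0% of 8747) and in OP 0 of 5 (0.0115% of 8664). An unadjusted p below 0.05 was reached by 0 members in each, and by 414, 437 and 422 of all genes. Voom-limma called 0 members too. Fitted on the libraries compared, it called 4 genes in EC, 0 in SP and 0 in OP, and fitted on all 38 libraries it called 251 of 13260 genes in EC (1.89%), 82 in SP (0.618%) and 28 in OP (0.211%). Genes above 1 RPKM in fewer than 4 of the libraries compared were not tested, which left out Itga4 and Itgal in all 3 niche types, Cd44 in EC, and Sele and Selp in SP and OP. An absent call does not show that levels were alike.

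**Figure D5:**
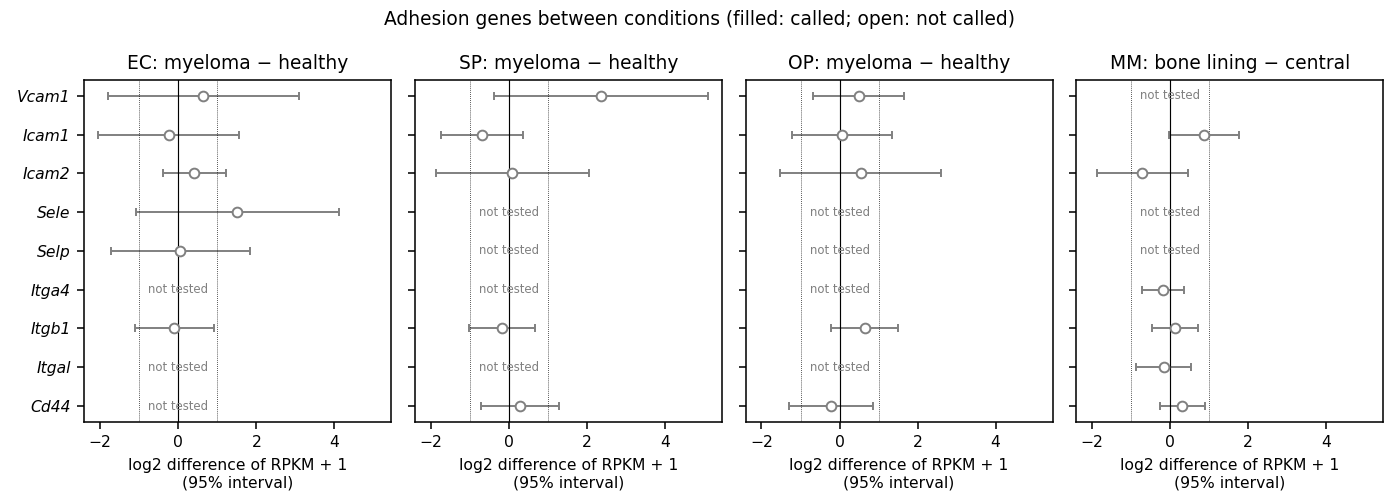
Log2 difference of RPKM + 1 for each adhesion gene between myeloma-bearing and healthy mice in EC, SP and OP, and between bone lining and central marrow in MM, with its 95% interval from limma. All points are open, since none was called, and the widest intervals are those of Vcam1 and Sele.

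In EC the largest estimate was that of Sele, with means of 21.7 ± 17.7 RPKM (SD, n = 5) in myeloma-bearing and 5.29 ± 4.46 (n = 5) in healthy mice and a log2 difference of 1.51 (95% interval -1.09 to 4.12, adjusted p = 0.956). It was 2.44 without myeloma-bearing library E and 0.96 without healthy library L, each with 0 reads. Beside the libraries with 0 reads, the 4 myeloma-bearing libraries (14.4 to 44.7 RPKM) were all above the 4 healthy ones (2.36 to 10.6 RPKM). That is a description, as the libraries were set aside by the value itself. Vcam1 differed by 0.64 (-1.81 to 3.09), and by -0.83 once healthy library L, with 0 reads, was left out. Icam2 differed by 0.41 (-0.39 to 1.21), Icam1 by -0.25 (-2.05 to 1.55), Selp by 0.05 (-1.73 to 1.83) and Itgb1 by -0.10 (-1.10 to 0.91). Selp reached 7.65 to 77.7 RPKM in healthy and 22.8 to 41.4 RPKM in myeloma-bearing mice, so the healthy range enclosed the other.

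In SP Vcam1 had the largest estimate of all members in any condition, 36.4 ± 24.3 RPKM (SD, n = 5) in myeloma-bearing and 11 ± 16.2 (n = 5) in healthy mice. Its log2 difference was 2.37 (95% interval -0.37 to 5.10, unadjusted p = 0.0855 by limma, adjusted p = 0.956), and 1.90 to 3.45 with 1 library left out. Libraries above 18 RPKM numbered 4 of 5 in myeloma-bearing and 2 of 5 in healthy mice. Icam1 differed by -0.69 (-1.73 to 0.35), Cd44 by 0.28 (-0.72 to 1.29), Itgb1 by -0.18 (-1.03 to 0.67) and Icam2 by 0.09 (-1.87 to 2.04). In OP, Itgb1 had means of 140 ± 46.1 RPKM (SD, n = 4) and 86 ± 10.5 (n = 4), a difference of 0.65 (-0.21 to 1.51, adjusted p = 0.981). Icam2 differed by 0.55 (-1.52 to 2.61), Vcam1 by 0.49 (-0.67 to 1.66), Icam1 by 0.06 (-1.22 to 1.34) and Cd44 by -0.22 (-1.29 to 0.85).

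Whether the change under myeloma differed between niche types was tested as an interaction over 11713 genes. Of 8 members tested 0 were called in each of the 3 pairs, with 0% of genes called in EC minus SP, 0% in EC minus OP and 0.00854% in SP minus OP, and 0 members had an unadjusted p below 0.05. For Vcam1 the change in EC minus that in SP was -1.73 (95% interval -5.27 to 1.81), and SP minus OP gave 1.87 (-1.89 to 5.63).

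The genes around the members gave 0 calls under myeloma too, where 0% of all genes were called in EC, 0% in SP and 0.0115% in OP. In EC 0 of 13 junction genes tested passed, and the most abundant were Emcn (1458 ± 233 RPKM in myeloma-bearing and 1630 ± 622 in healthy mice, SD, n = 5 each) and Plvap, a protein of vessel fenestrae (357 ± 58.9 and 517 ± 305 RPKM). Of 9 matrix genes tested in SP 0 passed, with Fn1 at 2360 ± 491 and 2664 ± 785 RPKM and Spp1 at 18149 ± 7756 and 21358 ± 7568 RPKM. In OP 0 of 9 passed, with Fn1 at 983 ± 248 and 1384 ± 489 RPKM (n = 4 each). In EC, SP and OP, 0 of 7, 8 and 6 further alpha chains, 0 of 2, 2 and 1 beta chains and 0 of 17, 16 and 14 activation and adaptor genes were called.

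In MM, bone lining was compared with central marrow, and 0 of 6 members were called (0.203% of 8857 genes; 0 members and 530 genes at an unadjusted p below 0.05). Icam1 in the bone lining was at 9.84 ± 4.28 RPKM (SD, n = 5) on average and in the central marrow at 4.96 ± 2.14 (n = 5). Its libraries were at 6.12, 8.79, 5.63, 14.7 and 14 RPKM and at 3.61, 6.16, 7.34, 1.98 and 5.73 RPKM (D, E, G, I, J), which overlap. The log2 difference was 0.86 (95% interval -0.04 to 1.76, unadjusted p = 0.0607 by limma, adjusted p = 0.84), and 0.48 without letter I. Icam2 differed by -0.71 (-1.87 to 0.45), and by -0.028 without letter I and -1.20 without letter D. Cd44 differed by 0.30 (-0.27 to 0.88), Itga4 by -0.18 (-0.71 to 0.36), Itgal by -0.17 (-0.87 to 0.54) and Itgb1 by 0.12 (-0.47 to 0.72). These last 4 intervals lie within 1 on the log2 scale. Around them, 0 of 6 selectin ligand genes, 0 of 4 alpha chains, 0 of 2 beta chains and 0 of 16 activation genes were called, beside 0.203% of all genes. Selplg was at 57 ± 11.5 and 63.2 ± 9.17 RPKM (SD, n = 5 each), Itgb2 at 15.6 ± 3.39 and 16.8 ± 4.66 RPKM, and Rap1b, a small GTPase of integrin activation, at 159 ± 44.7 and 90.1 ± 26.6 RPKM (log2 difference 0.82, adjusted p = 0.596).

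The order of the 8 group means is a description. For Vcam1 each group's range overlapped that of the next, from EC healthy (133 RPKM) and EC myeloma-bearing (110) through OP and SP to MM. Gaps between neighbours stood only below EC for Icam2 and Selp, below SP myeloma-bearing for Icam1, below OP healthy for Itgb1, below MM for Itga4 and Itgal, and above EC for Cd44. No gap fell between the healthy and myeloma-bearing groups of a cell type, or between the MM groups.

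Genes with the most similar pattern were taken by Pearson's r of log2(RPKM + 1) over the 38 libraries, among 12683 genes. The 4 cell types dominate this measure, and libraries also share depth, so r is given without a p. Itgal was most like Ptprc (r = 1.00) and Vav1 (0.99), Itga4 like Irf4 (0.98) and Tnfrsf18 (0.96), and Selp like Robo4 and Podxl (both 0.98). Icam2 was most like Gimap4 and Pecam1 (both 0.93), Sele like Kcne3 (0.93) and Csf2rb2 (0.92), and Itgb1 like Thbd (0.93) and Ppap2b (0.91). Cd44 was most like Mt2 and Scpep1 (both 0.90), Vcam1 like Iigp1 (0.87), and Icam1 like Pls3 (0.85) and Id1 (0.83). Between members the highest r was 0.95 for Itga4 and Itgal and the lowest -0.85 for Itga4 and Itgb1, the chains of VLA-4.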

How the data were processed

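RNA-Seq values of 38 libraries of 100 sorted cells were analysed. The authors sequenced SmartSeq2 cDNA in single-end reads, aligned it to GRCm38 (mm10) with STAR 2.4.0, counted reads with featureCounts (Subread 1.4.5-p1), removed genes that did not exceed 1 CPM in 4 or more samples, and deposited RPKM values. Other experiments of the study are not used here. Groups and letters came from the deposited labels.

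Whole reads behind the deposited RPKM values came out for 100% of 13260 genes (tolerance 0.001 read), with library totals of 9735031 to 34883291 reads. The library sizes behind the RPKM values were these totals times a scaling factor, and a higher factor lowers the levels. With factors set to multiply to 1, it was 1.31 to 1.6 in MM and 0.639 to 1.19 in EC. In SP it was 0.627 to 0.885 and in OP 0.844 to 0.98. Its part in the differences of MM from the other types was not tested. Amplified reads are not independent molecules, so floors (3 reads per library) cover counting error only. Cell types and conditions were compared with limma 3.58.1 in R 4.3.3 (lmFit, eBayes with trend) on log2(RPKM + 1), a scale that understates changes of low genes, for genes above 1 RPKM in at least 4 libraries of the fit. Conditions were fitted on the libraries compared, cell types on all 38 libraries as means of group means, and interactions on the 28 niche libraries. A call needed a Benjamini-Hochberg adjusted p below 0.1 over all genes tested and an absolute log2 difference above 1, the thresholds of the study. Its methods used voom-limma on counts, which was run here as an alternative, on the recovered reads with the same scaled library sizes. Scripts were tested on simulated data.

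Members and gene lists were chosen with earlier results of these data known. All members are named. Of other lists, up to 3 called genes per comparison with the largest difference could be named, or the 2 most abundant where none was called, and likeness names the 2 genes of highest Pearson's r. For Vcam1, 1 of these genes is not reported here. Itgb2, Fermt3, Selplg levels across types and the leukocyte markers of the libraries that stood apart were named after their values were seen. Alternatives were the pseudocount (0.1), no filter, no trend, median-ratio scaling, voom-limma, a shared fit of all libraries, healthy niche libraries only, replicate blocks and leaving out each replicate. A fit without 2 SP libraries rich in leukocyte markers (over 1000 RPKM in sum) was chosen after seeing the data. Strand and the treatment of overlapping genes are not given in the sources used here, beyond default settings of the counting. Sequences and positions are from RefSeq (GRCm38.p6).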

Additional observations from a re-analysis of the deposited data

Results flagged for a closer look

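In groups of 4 or 5 libraries, a library was singled out where its gap to the nearest other library, divided by the range of the group, exceeded Dixon's 95% critical value. Of 51 groups tested 6 were singled out. The critical value assumes normally distributed values, which RPKM near 0 with 1 positive library are not, so no rate by chance is set beside this count. Icam1 was at 104 RPKM in SP healthy C, against 50.3 to 51.2 RPKM in the other 4 libraries. Icam2 was at 5.62 RPKM in OP healthy O, against at most 1.62 RPKM. Itga4 was at 2.69 RPKM in EC healthy M and at 3.64 RPKM in OP healthy M, against at most 0.0232 and 0.0188 RPKM in the other libraries of these groups. Cd44 was at 13.5 RPKM in the same EC library, healthy M, against at most 0.109 RPKM. Itgal was at 2.79 RPKM in SP myeloma-bearing E, which was rich in leukocyte markers (7570 RPKM in sum), against at most 0.0384 RPKM. No explanation of these values was tested.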

How the results depend on the processing

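No adhesion gene was called between healthy and myeloma-bearing mice, between MM niches or as an interaction under any alternative run. Of 222 counts of called adhesion genes under alternatives, 218 stayed within 1.5 times the main count. The exceptions were all SP against OP, where 0 members became 1 with voom-limma and 1 without the 2 SP libraries rich in leukocyte markers, and 0 to 1 when replicate letters were left out in turn (1 without C and 1 without L). Of 1135 values of single members, 1097 kept their direction and side of the threshold, 31 reversed, 5 passed the thresholds and 2 no longer passed them. Reversals concerned differences that were not called, and their cause was not tested. In EC under myeloma, Itgb1 became 0.0086 with voom-limma and 0.061 with voom-limma on all libraries. In SP under myeloma, Icam2 became -0.045 with a pseudocount of 0.1, -0.15 with voom-limma and -0.11 with voom-limma on all libraries, and Itgb1 became 0.14 without the 2 SP libraries. In SP against OP, Icam1 became -0.0071 with median-ratio scaling, and Icam2 became 0.22 without the 2 SP libraries and 0.18 with healthy niche libraries only.

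Leaving out 1 replicate moved the log2 difference under myeloma in EC from -0.83 to 1.12 for Vcam1, from -0.81 to 0.35 for Icam1, from 0.24 to 0.61 for Icam2, from 0.96 to 2.44 for Sele, from -0.41 to 0.39 for Selp and from -0.26 to 0.11 for Itgb1. In SP it ran from 1.90 to 3.45 for Vcam1, from -0.81 to -0.49 for Icam1, from -0.41 to 0.46 for Icam2, from -0.40 to -0.0047 for Itgb1 and from 0.013 to 0.51 for Cd44. In OP it ran from 0.27 to 0.72 for Vcam1, from -0.25 to 0.37 for Icam1, from -0.016 to 1.16 for Icam2, from 0.45 to 0.82 for Itgb1 and from -0.30 to -0.027 for Cd44. Between MM niches it ran from 0.48 to 1.16 for Icam1, from -1.20 to -0.028 for Icam2, from -0.29 to -0.032 for Itga4, from -0.11 to 0.33 for Itgb1, from -0.44 to 0.16 for Itgal and from 0.14 to 0.51 for Cd44. In SP against OP it ran from -0.016 to 0.29 for Icam1 and from -0.28 to 0.14 for Icam2.

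Of 222 counts over all genes, 51 moved by more than 1.5 times. Genes called under myeloma went from 0 to 258 in EC with all 38 libraries in the fit, from 0 to 82 in SP and from 1 to 28 in OP with voom-limma on all libraries. Between MM niches 18 became 1 without a filter and 3 to 16 without 1 replicate. SP against OP fell from 1075 to 650 with healthy niche libraries only. Voom-limma shifted the median of all genes by up to 0.95 (MM against EC), and moved the share of higher calls from 72.2% to 87.5% between MM niches and from 42.2% to 32.2% in SP against OP. Libraries with the same letter deviated together weakly or not at all (59 pairs, r -0.04 to 0.12, median 0.01). Letter G gave r of 0.08 to 0.12 between its EC, SP, OP and bone lining MM libraries. Letter I gave 0.07 to 0.08 between SP, OP and bone lining MM. Values this small cannot show whether a letter stands for 1 animal, and letters were not taken as pairs in the main fits. With letters as a replicate block, 12 genes rather than 18 were called between MM niches, and no call of an adhesion gene changed.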
